A study of Rattus norvegicus with 18 samples.

Results

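The genes described here are a small set through which cells adjust to osmotic stress and move water: the transcription factor gene Nfat5, the organic osmolyte genes Slc6a6, Slc5a3 and Akr1b1, and the water channel genes Aqp1, Aqp3 and Aqp5. They were chosen by name and not by their values, but with earlier results of these data known. The highest row of each name was taken. Of the 7 names, 5 matched a row, so that 5 of the 18923 genes of the expression table are described, and Slc5a3 and Aqp5 are not analysed here. The samples were rat (Rattus norvegicus) nucleus pulposus, the soft centre of the disc between vertebrae, taken at 2, 10 or 20 months of age, with no treatment or genetic change named in the labels. Each age had 3 input libraries, made from poly(A) RNA without immunoprecipitation, and these 9 libraries are used throughout. A further 9 libraries, immunoprecipitated with an antibody against N6-methyladenosine, are not analysed here. The sources used here do not give the strain, sex, disc level or number of animals behind a library. A p-value here thus reflects only how far libraries of 1 age spread, which may be technical.

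The nucleus pulposus holds water because its aggrecan-rich matrix is densely charged, and its cells therefore live in a hypertonic medium whose tonicity shifts with load. NFAT5, also called TonEBP, is the transcription factor that answers hypertonicity in mammalian cells, and it binds tonicity-responsive elements built around the core TGGAAA. Its classical targets raise the content of small organic osmolytes that do not disturb proteins: SLC6A6 takes up taurine, SLC5A3 takes up myo-inositol, SLC6A12 takes up betaine, and AKR1B1 (aldose reductase) makes sorbitol from glucose. Aquaporins are membrane channels for water, and AQP3 also passes glycerol.

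The promoters of Slc6a6 and Slc6a12 are printed because both genes encode osmolyte transporters and because Slc6a6 differed most with age among the tested genes of the set. Each is the RefSeq sequence on build GRCr8 from 250 bases before to 50 bases after the gene's start, read 5′ to 3′ on the plus strand, which is the strand of both genes in that build. Capitals mark the core TGGAAA or its reverse complement TTTCCA. The positions are chr4:125752252-125752551 for Slc6a6 and chr4:156257268-156257567 for Slc6a12.
Slc6a6: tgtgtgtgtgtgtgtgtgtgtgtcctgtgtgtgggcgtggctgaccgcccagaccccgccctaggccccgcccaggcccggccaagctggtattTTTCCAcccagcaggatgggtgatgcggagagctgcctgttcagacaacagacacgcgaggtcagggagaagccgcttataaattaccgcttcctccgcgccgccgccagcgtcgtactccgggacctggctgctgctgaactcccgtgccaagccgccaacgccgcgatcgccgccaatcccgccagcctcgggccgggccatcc
Slc6a12: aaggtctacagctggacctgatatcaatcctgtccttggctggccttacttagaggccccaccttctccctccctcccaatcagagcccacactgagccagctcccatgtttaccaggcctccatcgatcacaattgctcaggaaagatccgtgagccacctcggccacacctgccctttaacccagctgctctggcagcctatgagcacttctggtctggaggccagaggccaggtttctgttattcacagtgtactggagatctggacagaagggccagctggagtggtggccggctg
The Slc6a6 promoter held 1 match, on the reverse strand, beginning 156 bases before the start, and the Slc6a12 promoter held none. On either strand the 6 letters occurred in 7604 of 33469 RefSeq promoters of this length (22.7%). Of the 5 genes of the set with a promoter entry (Slc6a6, Slc5a3, Aqp1, Aqp3 and Aqp5), 1 held a match. A match of these letters is a description of the sequence, not a binding site.

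Levels are given as FPKM, that is sequenced fragments divided by transcript length and by the mapped total, which can be compared between genes because they are per length. The libraries held 3.53 to 5.04 gigabases of alignments. The 20-month libraries stood apart from the others: their read length peaked at 141 bases against 132, ribosomal protein genes held 20.3 to 20.9% of their summed FPKM against 13.9 to 16.5%, and mitochondrial genes held 0.087 to 0.11% against 0.46 to 0.69%. Any effect of this and the effect of 20 months of age cannot be told apart. The median difference of all tested genes at 20 months was −0.20 from 2 months and −0.23 from 10 months on the log2(FPKM + 1) scale. After median-of-ratios scaling, which sets the typical gene equal between libraries, these medians were −0.0020 and −3.11e-04. For Nfat5, Slc6a6, Akr1b1 and the counts of called genes, comparisons with 20 months are therefore given on both scales. All 11 nucleus pulposus markers in the table reached FPKM 1, and they summed to 32286 to 33665 FPKM at 2 months, 27607 to 27903 FPKM at 10 months and 27874 to 29185 FPKM at 20 months. Between 2 and 10 months 0 of the 11 rose and 7 fell by limma, where 19.0% of all tested genes rose and 11.4% fell. Their median difference was −0.41, and 8 had an unadjusted limma p under 0.05. The other 4 were not called, among them Tbxt (2369 and 2468 FPKM) and Ca3 (9992 and 9507 FPKM). Most of the tissue's own markers thus fell in the comparison in which Slc6a6 and Nfat5 rose. The part of this in the levels of Slc6a6 and Nfat5 was not tested.

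Nfat5 (ENSRNOG00000011879) lies on the minus strand of chromosome 19 from 38446059 to 38533735, in the coordinates of the deposited table, whose genome build the sources used here do not give. Its level was 12.5, 12.7 and 13.1 FPKM in the 2-month libraries, 14.8, 15.4 and 14.6 FPKM at 10 months, and 12.1, 11.7 and 12.7 FPKM at 20 months. The 3 libraries of 10 months were higher than all 6 others, while the 2- and 20-month libraries overlapped. The means were 12.7 ± 0.303, 14.9 ± 0.412 and 12.2 ± 0.484 FPKM (SD, n = 3 each), above the level of 75.5%, 77.7% and 76.9% of all genes in the table. Nearly all of it was 1 transcript of 15 exons and 13565 bases, covered 42.6 to 72.9 times per base, so counting error is small.

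Slc6a6 (ENSRNOG00000009019), the taurine transporter gene, lies on chromosome 4 from 123642210 to 123713464 and on the minus strand in the table's own build. It measured 9.41, 8.47 and 8.66 FPKM at 2 months, 18.0, 16.5 and 17.8 FPKM at 10 months, and 7.66, 7.08 and 10.3 FPKM at 20 months. Every 10-month library was far above every other library, and the ranges at 2 and 20 months overlapped because 20-month replicate 3 was the highest of those 6. The means were 8.85 ± 0.495, 17.4 ± 0.843 and 8.34 ± 1.71 FPKM (SD, n = 3 each), which placed the gene above 68.8%, 80.5% and 70.3% of all genes.

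Akr1b1 (ENSRNOG00000009513), the aldose reductase gene, lies on chromosome 4 from 61706864 to 61720956 on the minus strand. It was the highest of the set at each age, with 28.6, 27.6 and 27.2 FPKM at 2 months, 29.2, 26.9 and 26.5 FPKM at 10 months, and 32.3, 23.6 and 29.2 FPKM at 20 months. The 3 ages overlapped, and the 20-month libraries held both the highest and the lowest value of the 9. The means were 27.8 ± 0.747, 27.6 ± 1.46 and 28.4 ± 4.39 FPKM (SD, n = 3 each). Related aldo-keto reductase genes are similar in sequence, and the sources used here do not give how reads shared with them were assigned.

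Aqp1 (ENSRNOG00000011648), the water channel of red cells and vessel lining, lies on the plus strand of chromosome 4 from 85551502 to 85569360. It stood at 0.120, 0.273 and 0.188 FPKM at 2 months, 0.184, 0.192 and 0.203 FPKM at 10 months, and 0.259, 0.204 and 0.778 FPKM at 20 months. No library reached FPKM 1, and 20-month replicate 3 stood above the rest. The mean at 20 months was 0.414 ± 0.317 FPKM (SD, n = 3) and was 0.231 FPKM without that replicate, against 0.193 FPKM at both other ages. Replicate 3 of 20 months also held the highest sum of skeletal muscle markers, 264 FPKM, against 5.12 and 6.04 FPKM in the other 20-month libraries. Endothelial markers, from cells that normally carry Aqp1, summed to 0.566 to 0.743, 0.713 to 0.905 and 0.878 to 1.37 FPKM at 2, 10 and 20 months. None of the 7 in the table reached FPKM 1, and neither did Aqp1. Vwf was the highest of them, at 0.256 to 0.305, 0.512 to 0.595 and 0.626 to 0.811 FPKM at these ages. Cdh5, Kdr and Tek were under 0.1 FPKM in every library. Red cell markers summed to 84.9 to 94.9, 10.3 to 11.5 and 37.4 to 42.8 FPKM at 2, 10 and 20 months, an order that the Aqp1 means did not follow. The part of these cells in the Aqp1 level was not tested.

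Aqp3 (ENSRNOG00000009797), the water and glycerol channel, lies on the minus strand of chromosome 5 from 57423734 to 57429245. The 2-month libraries held 0.0603, 0 and 0.104 FPKM, the 10-month libraries 0.567, 0.309 and 0.362 FPKM, and the 20-month libraries 0.289, 0.367 and 0.417 FPKM. All 6 older libraries were above all 2-month libraries, although none reached FPKM 1 and 1 library of 2 months listed the gene at 0. Judged from coverage, these values rest on the equivalent of 4, 0 and 7 reads at 2 months and 13 to 33 reads at the other ages, so they carry large counting error. The means were 0.0548 ± 0.0523, 0.413 ± 0.136 and 0.357 ± 0.0647 FPKM (SD, n = 3 each).

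**Figure D1:**
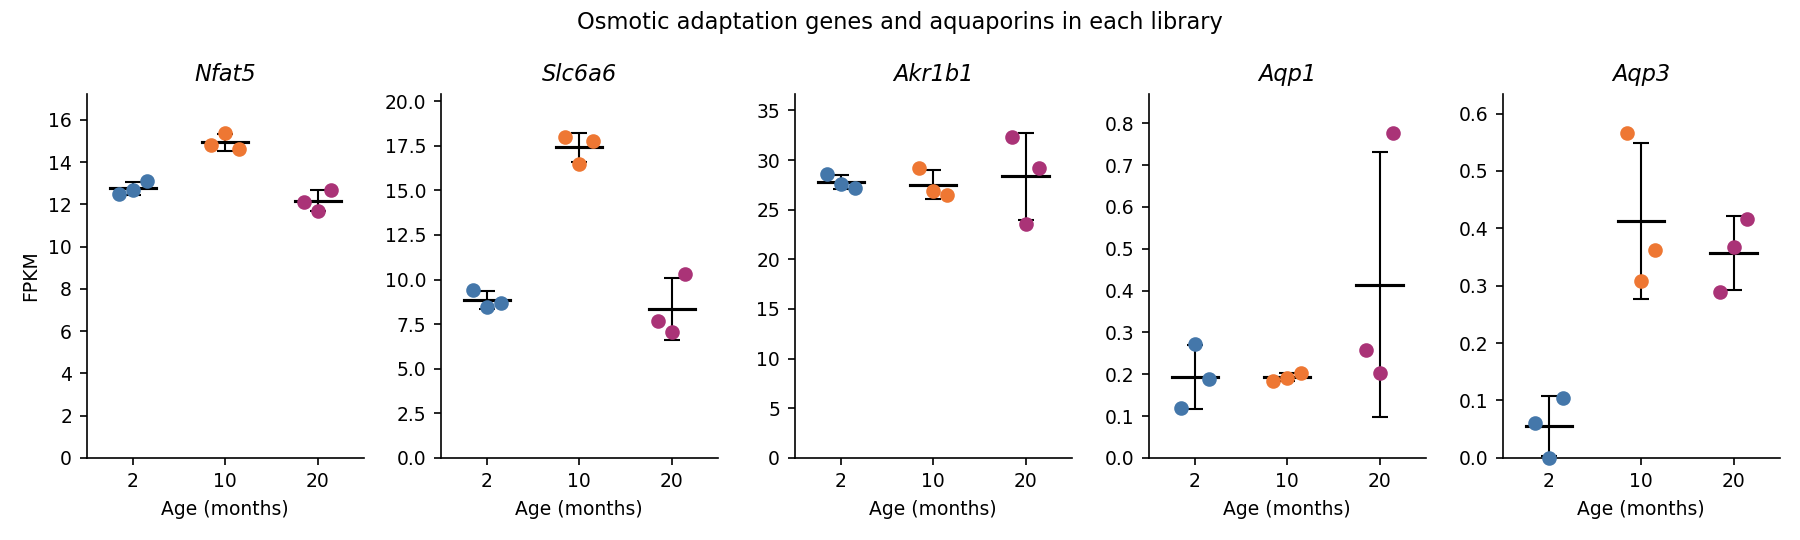
FPKM of the 5 genes (vertical axes, each on its own scale from 0) in each library against age in months (horizontal axes). Points are libraries, horizontal bars are the mean and whiskers the SD of 3 libraries. The 10-month libraries of Nfat5 (14.6 to 15.4 FPKM) and Slc6a6 (16.5 to 18.0 FPKM) lie above all others, Akr1b1 overlaps across ages, and Aqp3 is lowest at 2 months.

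In order of level, Akr1b1 stood above Nfat5 and Nfat5 above Slc6a6 in every library of 2 and 20 months. At 10 months the latter pair changed places, since Slc6a6 (16.5 to 18.0 FPKM) exceeded Nfat5 (14.6 to 15.4 FPKM) without overlap. Aqp1 and Aqp3 were lower by far at each age, and their ranges overlapped at 20 months. At 2 months Aqp3 (0 to 0.104 FPKM) lay below Aqp1 (0.120 to 0.273 FPKM), and at 10 months it lay above it.

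Between 2 and 10 months, the comparison of young with mature adult tissue, Slc6a6 rose from 8.85 to 17.4 FPKM and Nfat5 from 12.7 to 14.9 FPKM, while Akr1b1 did not pass the test. Genes were tested where 3 or more of the 9 libraries reached FPKM 1, which kept 11708 genes and 3 of the set (Nfat5, Slc6a6 and Akr1b1). limma gave Slc6a6 a difference of 0.91 ± 0.11 on the log2(FPKM + 1) scale (SE, 95% interval 0.65 to 1.16, adjusted p = 4.90e-04). Nfat5 differed by 0.21 ± 0.044 (interval 0.11 to 0.31, adjusted p = 0.00688). For Akr1b1 the difference was −0.011 with an interval of −0.23 to 0.21 (adjusted p = 0.945). Thus 2 of the 3 tested genes rose, where 30.3% of all tested genes were called in either direction and 19.0% rose. Scaled values called 29.7% of genes, 15.1% rising and 14.5% falling, and again Nfat5 and Slc6a6 rose. The libraries of these 2 genes did not overlap between the ages, as for 53.8% of all tested genes, of which those higher at 10 months made up 32.3% of all tested. A test for any difference among the 3 ages called the same 2 genes, where it called 75.4% of all genes, and all 3 after scaling, where it called 67.0%. The differences come from the libraries of these ages, while the p-values use an estimate of the spread to which the 20-month libraries contribute. With only the 2 ages fitted, 4807 genes were called in place of 3551, and Slc6a6 and Nfat5 were called there too. In bulk tissue, more cells that express a gene and more RNA per cell cannot be told apart.

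Aqp1 and Aqp3 were tested only in a fit without the filter on low values, over all 18923 genes, where 17.6% were called between 2 and 10 months and 10.7% rose. There Aqp3 was higher at 10 months by 0.42 ± 0.073 (SE, interval 0.25 to 0.59, limma adjusted p = 0.00674), a difference that rests on the few reads given above. Aqp1 differed by 0.0016 (interval −0.31 to 0.31, adjusted p = 1.0). In the same fit Aqp3 was higher at 20 than at 2 months by 0.36 (interval 0.19 to 0.53, adjusted p = 0.00401), where 45.1% of genes were called and 12.2% rose. Aqp1 had a 20-month difference of 0.22 from 2 months (interval −0.089 to 0.54, adjusted p = 0.231).

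Between 2 and 20 months none of the 3 tested genes was called. limma gave 0 calls at an adjusted p under 0.05 and also 0 at an unadjusted p under 0.05, where 68.2% of all tested genes were called. In each of the 3 the libraries of the ages overlapped, while they did not overlap for 70.4% of all tested genes. Slc6a6 differed by −0.090 (interval −0.34 to 0.16, adjusted p = 0.495), Nfat5 by −0.063 (−0.16 to 0.037, adjusted p = 0.232) and Akr1b1 by 0.019 (−0.20 to 0.24, adjusted p = 0.868). After median-of-ratios scaling 2 of the 3 were called higher, where 62.3% of genes were called, 31.0% rising and 31.3% falling: Nfat5 by 0.15 (adjusted p = 0.0161) and Akr1b1 by 0.24 (adjusted p = 0.0414), the latter with overlapping libraries. Scaled Slc6a6 differed by 0.12 (adjusted p = 0.396). Without 20-month replicate 3, the library with the high muscle markers, unscaled Slc6a6 was lower at 20 months by −0.23 (adjusted p = 0.0117), and without replicate 2 it differed by 0.0072 (adjusted p = 0.957).

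Between 10 and 20 months Slc6a6 fell from 17.4 to 8.34 FPKM. Its difference was −0.99 ± 0.11 (SE, interval −1.25 to −0.74, limma adjusted p = 7.02e-05), and it came to −0.75 with median-of-ratios scaling (adjusted p = 5.97e-04), with scaled means of 16.2 and 9.36 FPKM. Nfat5 fell by 0.27 ± 0.044 on the deposited values (adjusted p = 5.61e-04), but its scaled difference was −0.025 (adjusted p = 0.664) and scaled libraries overlapped. Akr1b1 differed by 0.030 (interval −0.19 to 0.25, adjusted p = 0.797) on the deposited values and was called higher after scaling, by 0.29 (adjusted p = 0.0236), with overlapping libraries. So 2 of 3 tested genes fell, where 64.7% of all tested genes were called and 53.3% fell, and their libraries lay below those of 10 months without overlap, as for 55.3% of all tested genes (67.9% in either direction). After scaling 1 fell and 1 rose, where 52.5% of genes were called, and 25.8% of genes fell and 26.7% rose. Of the set, Slc6a6 alone kept its 10-to-20-month call in every setting run.

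**Figure D2:**
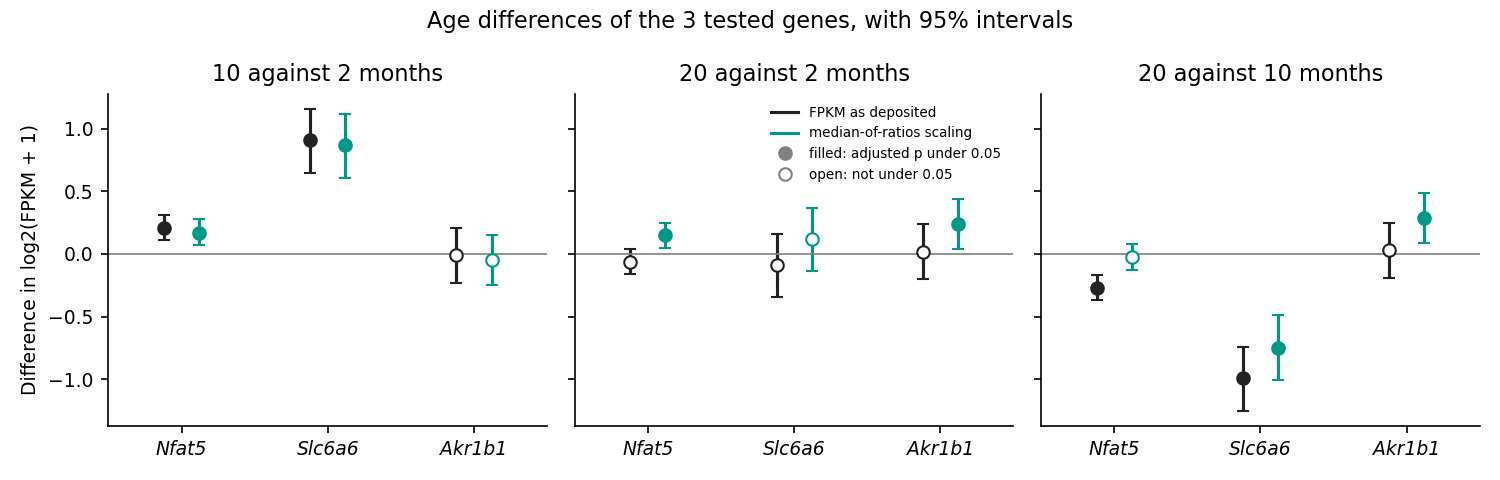
Differences in log2(FPKM + 1) (vertical axis) for Nfat5, Slc6a6 and Akr1b1 in each comparison, with 95% intervals from limma. Black is FPKM as deposited and green is after median-of-ratios scaling, and filled points have an adjusted p under 0.05. Slc6a6 is higher at 10 months on both scales (0.91 and 0.87 above 2 months), whereas Nfat5 between 10 and 20 months is called only on the deposited values.

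Ratios within a library do not depend on the scaling of that library. They were chosen after the values were seen and are given as a description. Slc6a6 over Nfat5 was 0.755, 0.667 and 0.663 at 2 months, 1.22, 1.07 and 1.22 at 10 months, and 0.635, 0.603 and 0.811 at 20 months. The 10-month ratios were above all others. Slc6a6 over Akr1b1 was 0.307 to 0.329, 0.611 to 0.672 and 0.237 to 0.353 at the 3 ages, and again the 10-month libraries did not overlap the rest. Nfat5 over Akr1b1 was 0.436 to 0.481, 0.506 to 0.570 and 0.373 to 0.496, so the transcription factor gene too was highest relative to Akr1b1 at 10 months, by a narrow margin over 1 library of 20 months. These ratios show unequal change of the genes in a pair and not which of them changed.

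**Figure D3:**
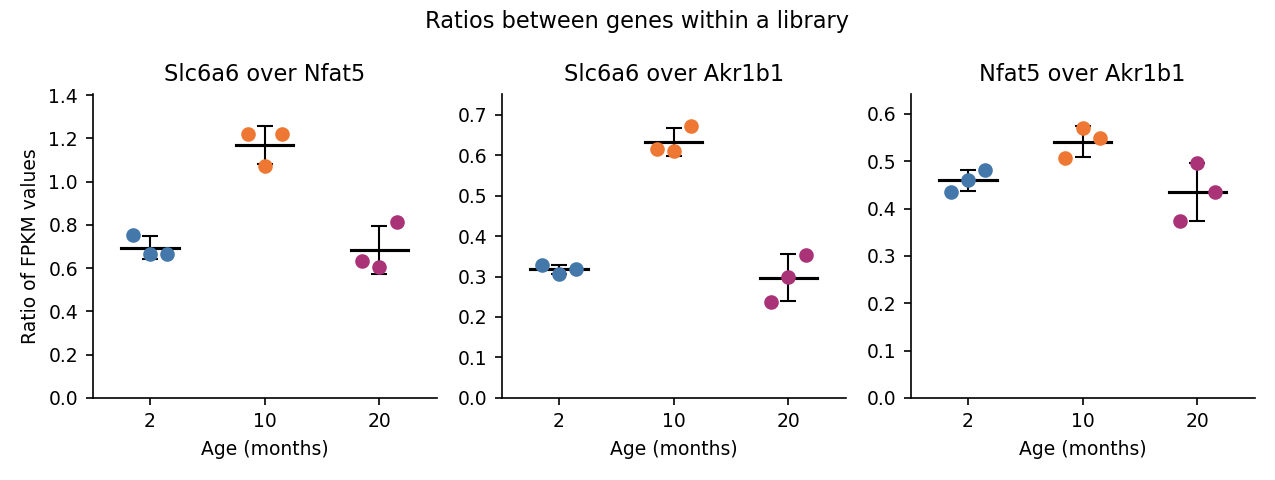
Ratio of FPKM values of a pair of genes within each library (vertical axes from 0) against age in months. Points are libraries, bars the mean and whiskers the SD of 3 libraries. The 10-month ratios of Slc6a6 to Nfat5 (1.07 to 1.22) and to Akr1b1 (0.611 to 0.672) lie above those of the other ages.

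Slc6a6 had 2 transcripts in the table. The transcript of 15 exons and 2463 bases measured 6.44, 8.34 and 7.92 FPKM at 2 months, 18.2, 17.4 and 15.8 FPKM at 10 months, and 7.51, 4.64 and 7.37 FPKM at 20 months. The transcript of 16 exons and 2319 bases measured 4.22, 1.09 and 1.76 FPKM, then 1.84, 0.842 and 4.18 FPKM, then 1.03, 3.40 and 4.26 FPKM. The 15-exon transcript was higher in each 10-month library than in any other library, while the 16-exon transcript overlapped across ages and varied widely within each. The share of the 15-exon transcript lay between 60.4 and 88.4% in the 2-month libraries, between 79.1 and 95.4% in the 10-month libraries and between 57.7 and 87.9% in the 20-month libraries. The log2 ratio of the 15-exon over the 16-exon transcript did not pass limma's test in any comparison. It differed by 1.20 ± 0.76 between 2 and 10 months (SE, adjusted p = 0.818), where 0.253% of 2765 tested isoforms were called. Between 10 and 20 months it differed by −1.68 ± 0.76 (adjusted p = 0.240), where 6.98% were called, and between 2 and 20 months by −0.47 (adjusted p = 0.740), where 10.8% were called. A shift in transcript use was thus not detected.

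**Figure D4:**
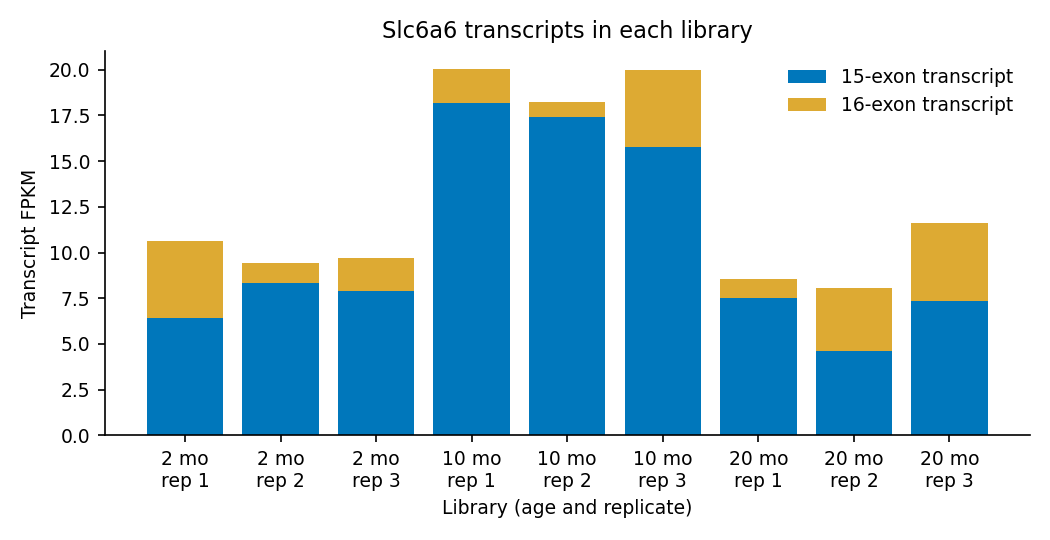
FPKM of the 2 Slc6a6 transcripts (stacked bars from 0) in each library. The 15-exon transcript reaches 15.8 to 18.2 FPKM at 10 months and at most 8.34 FPKM at the other ages, while the 16-exon transcript shows no order by age.

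Other genes of osmotic adaptation were read from 4 lists with 62 names, of which 54 were in the table and 49 were tested. Between 2 and 10 months 10 of the 49 rose and 10 fell, where 19.0% of all genes rose and 11.4% fell, and their median difference was −0.033 against 0.040 over all genes. Of 13 tested genes of organic osmolyte transport and metabolism, 2 rose. This count was 4 when any 1 of the 20-month libraries was left out, 5 with only the 2 ages fitted or with array weights, and 1 without 2-month replicate 1 or 3 or 10-month replicate 1 or 2. Isyna1, which makes the precursor of myo-inositol, rose from 0.976 ± 0.139 to 2.23 ± 0.416 FPKM (SD, n = 3 each; difference 0.70 ± 0.11 SE, limma adjusted p = 0.00132). Slc6a12, the betaine transporter, measured 3.82, 4.28 and 3.65 FPKM at 2 months, 5.55, 5.59 and 5.39 FPKM at 10 months, and 6.10, 4.17 and 5.0 FPKM at 20 months. Its 10-month libraries lay above all 2-month libraries, and it rose by 0.41 between these ages (adjusted p = 0.0194). That call was lost without 2-month replicate 1 or 3 (adjusted p = 0.0606 and 0.0675) or 10-month replicate 1 or 2 (0.0586 and 0.0599).

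In the same list 3 genes fell between 2 and 10 months, with 1 falling when 2-month replicate 1 or 2 or 10-month replicate 1 was left out. Slc38a2, the hypertonicity-responsive transporter of neutral amino acids, fell from 97.6 ± 0.490 to 83.0 ± 2.86 FPKM (adjusted p = 0.00657). Slc2a13, a proton-coupled myo-inositol transporter, fell from 6.25 ± 0.244 to 4.76 ± 0.451 FPKM (adjusted p = 0.0178, but 0.0632, 0.0549 and 0.0657 without 2-month replicate 1, 2-month replicate 2 and 10-month replicate 1). Sord, sorbitol dehydrogenase, which oxidises the sorbitol that AKR1B1 makes, went from 11.0 ± 0.591 to 9.24 ± 0.273 FPKM (adjusted p = 0.0457, and 0.0624 to 0.141 when any 1 of the 6 libraries of these ages was left out). The Sord call was also lost with a replicate block (adjusted p = 0.0546), a pseudocount of 0.1 (0.0530), no filter (0.0761) and an equal sum without ribosomal protein and mitochondrial genes (0.0520).

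Between 2 and 20 months 4 of the 13 osmolyte genes rose and 5 fell, where 18.6% of all genes rose and 49.6% fell. After median-of-ratios scaling 5 rose and 5 fell, where 31.0% and 31.3% of all genes did. Sord fell to 5.87 ± 0.733 FPKM (difference −0.81 ± 0.076 SE, adjusted p = 1.59e-05) and by 0.61 after scaling (adjusted p = 8.30e-05), whereas the Akr1b1 differences were 0.019 and 0.24. Cdo1, cysteine dioxygenase of the taurine synthesis pathway, rose from 1.93 ± 0.317 to 4.97 ± 1.14 FPKM (1.01 ± 0.15, adjusted p = 2.48e-04; scaled 1.19). Isyna1 stood at 2.48 ± 0.122 FPKM (0.82 above 2 months, adjusted p = 1.14e-04; scaled 0.97). Impa2, an inositol monophosphatase, rose from 0.788 ± 0.0190 to 1.55 ± 0.446 FPKM (0.50, adjusted p = 0.00591; scaled 0.63). Isyna1 and Impa2 reached FPKM 1 mainly in the older libraries, through which they passed the filter, and without the filter their adjusted p-values were 3.66e-04 and 0.00963. Between 10 and 20 months 1 osmolyte gene rose, which was Cdo1, and 6 fell, where 11.4% of all genes rose and 53.3% fell. Scaling made this 4 and 3, where 26.7% and 25.8% of all genes did.

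Of 14 tested genes of NFAT5 signalling and its other reported targets, 4 rose and 4 fell between 2 and 10 months, with 2 rising when 10-month replicate 1 was left out, where 19.0% of all genes rose and 11.4% fell. Map3k3, a kinase upstream of p38 in the response to hypertonicity, rose from 24.9 ± 0.515 to 28.8 ± 0.600 FPKM (0.20, adjusted p = 0.00247). Dhx9, an RNA helicase that binds NFAT5, rose from 15.5 ± 0.225 to 18.2 ± 0.494 FPKM (adjusted p = 0.00611). B3gat3, a glucuronyltransferase of glycosaminoglycan linkage, rose from 45.6 ± 1.48 to 55.1 ± 2.22 FPKM (0.27, adjusted p = 0.0147, but 0.0546 and 0.0574 without 2-month and 10-month replicate 1). It stood at 33.8 ± 3.21 FPKM at 20 months, a difference from 10 months of −0.69 on the deposited values and −0.43 after scaling. The heat shock gene Hspa1b, whose reads may be shared with a near-identical copy and whose level is therefore uncertain, fell from 98.7 ± 8.36 to 34.1 ± 1.08 FPKM (−1.51 ± 0.15, adjusted p = 1.64e-04). It stood at 29.7 ± 7.08 FPKM at 20 months, a difference from 2 months of −1.73 on the deposited values and −1.50 after scaling. Sgk1, a kinase that regulates ion transport, went the other way from Slc6a6: it fell from 10.0 ± 0.215 to 6.30 ± 0.315 FPKM (adjusted p = 3.81e-04) and rose again to 10.1 ± 1.04 FPKM at 20 months (0.61, adjusted p = 8.52e-05; scaled 0.85). S100a4, a calcium-binding protein gene, fell from 539 ± 6.01 to 394 ± 7.59 FPKM (adjusted p = 7.02e-04). Between 2 and 20 months 0 rose and 10 fell by limma, with 10 at an unadjusted p under 0.05, where 18.6% of all genes rose and 49.6% fell. After scaling 3 rose and 7 fell, where 31.0% and 31.3% of all genes did. Between 10 and 20 months 1 rose and 9 fell, where 11.4% and 53.3% of all genes did, and after scaling 3 rose and 4 fell, where 26.7% and 25.8% did.

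Of 21 tested genes of cell volume and ion transport, 4 rose and 3 fell between 2 and 10 months. In this main setting the counts are near the shares of all genes, 19.0% rising and 11.4% falling. The falling count was 5 after median-of-ratios scaling or quantile normalization, with only the 2 ages fitted, with array weights, and without 20-month replicate 3. After median-of-ratios scaling 14.5% of all genes fell. Wnk1, a kinase that senses chloride and cell volume, rose from 354 ± 3.31 to 420 ± 2.47 FPKM (0.25, adjusted p = 3.85e-04). It was at 343 ± 10.6 FPKM at 20 months on the deposited values, and its scaled level is not given here. Slc12a2, the sodium, potassium and chloride cotransporter that acts in volume increase, rose from 285 ± 5.56 to 344 ± 10.7 FPKM (adjusted p = 0.00111). It was at 340 ± 14.6 FPKM at 20 months, 0.25 above 2 months on the deposited values and 0.48 after scaling. Lrrc8c, a subunit of the volume-regulated anion channel, fell from 3.01 ± 0.118 to 2.06 ± 0.101 FPKM (adjusted p = 0.00943). Between 2 and 20 months 3 rose and 15 fell, where 18.6% of all genes rose and 49.6% fell. After scaling 7 rose and 7 fell, where 31.0% and 31.3% did, so the excess of falls depended on the scale in the list as in all genes. Falls on both scales included Trpv4, the osmosensitive cation channel gene, from 11.1 ± 0.146 to 5.86 ± 0.434 FPKM (−0.82, adjusted p = 1.96e-06; scaled −0.62), and Ano6, a calcium-activated channel and lipid scramblase gene, from 34.5 ± 0.684 to 19.4 ± 1.37 FPKM (−0.80, adjusted p = 1.33e-06; scaled −0.58). Between 10 and 20 months 0 of the 21 rose and 14 fell by limma, with 15 at an unadjusted p under 0.05 and 1 rising without 20-month replicate 1, where 11.4% of all genes rose and 53.3% fell. Median-of-ratios scaling made this 7 rising and 6 falling, where 26.7% and 25.8% of all genes did.

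Of 9 other aquaporin names 3 were in the table and 1, Aqp11, an aquaporin of intracellular membranes, was tested. It measured 1.38, 1.16 and 0.993 FPKM at 2 months, 0.810, 1.06 and 1.05 FPKM at 10 months, and 0.431, 0.606 and 0.518 FPKM at 20 months. The 20-month libraries were below all others. The gene passed the filter only through libraries of 2 and 10 months, where it is higher, and it is not tested when FPKM 1 is required in every library. Without any filter, the limma difference at 20 months was −0.52 ± 0.087 from 2 months (SE, adjusted p = 0.00161) and −0.38 ± 0.087 from 10 months (adjusted p = 0.00924). With the filter and after scaling, the latter had an adjusted p of 0.0560. Unlike Aqp11, Aqp3 was higher at 20 than at 2 months, at a lower level.

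**Figure D5:**
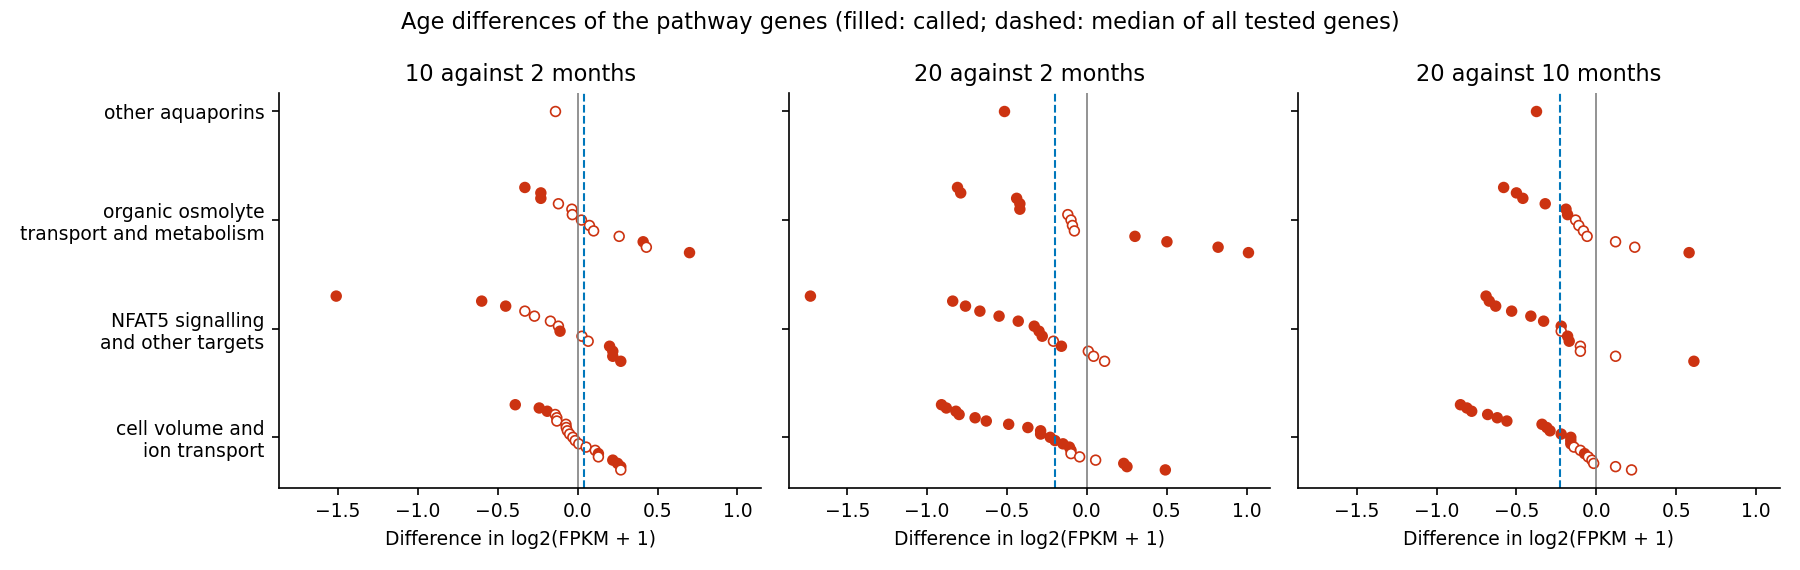
Differences in log2(FPKM + 1) (horizontal axes) of the 49 tested genes of the 4 lists in each comparison, from the deposited FPKM. Filled points were called by limma, the grey line is 0 and the dashed line is the median of all tested genes (0.040, −0.20 and −0.23). Points lie on both sides of 0 at 10 months, and most lie below 0 in both comparisons with 20 months.

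As a description of pattern, the genes whose log2(FPKM + 1) followed each member most closely over the 9 libraries were sought among 7058 tested genes with a mean FPKM of at least 5. For Slc6a6 they included Nktr and Trnt1 (Pearson's r of 0.986 and 0.984), which shared its peak at 10 months with smaller changes, as Nktr went from 29.6 to 36.4 and 29.1 FPKM. For Nfat5 they were Dop1a, Tnrc6b and Cntrl (0.986, 0.981 and 0.979). Akr1b1 had looser matches in Fau, Esd and Nudt21 (0.924, 0.848 and 0.828). Aqp1 matched Tpm2, Depp1 and Errfi1 (0.919, 0.916 and 0.911), and Aqp3 matched Hdac2, Myd88 and Ebag9 (0.982, 0.962 and 0.960). The 9 points share 3 ages, and close matches are found by searching many genes, so these values carry no p.

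Summed markers of other cells also differed between the ages, though not every list held called genes. Annulus and tendon markers, summed to 784 to 820, 504 to 524 and 366 to 422 FPKM at 2, 10 and 20 months. Nearly all of this was Fmod, with means of 784, 509 and 392 FPKM. Between 2 and 10 months 2 of the 5 tested genes of this list fell by limma, Fmod and Col1a1, and 1 rose, Prg4. Of all tested genes, 11.4% fell and 19.0% rose between these ages. Col1a1 went from 9.47 to 0.966 FPKM (adjusted p = 0.00133) and stood at 2.39 ± 2.34 FPKM at 20 months. The 20-month libraries held 0.895, 1.18 and 5.09 FPKM, so this mean was raised by replicate 3. Scx (3.13 and 2.44 FPKM) was not called between 2 and 10 months (adjusted p = 0.120). Prg4 went the other way from Fmod, from 0.724 to 1.72 and 5.06 FPKM. By limma it was called higher in each comparison on the deposited values (adjusted p = 0.0130, 1.05e-05 and 2.40e-04 for 10 against 2, 20 against 2 and 20 against 10 months). Its 2-month libraries held 0.670, 0.648 and 0.854 FPKM, so Prg4 passed the filter only through older libraries, where it is higher. Its differences without the filter and after scaling are not given here. Macrophage markers summed to 14.8 to 15.4, 19.4 to 20.9 and 15.3 to 19.0 FPKM, with Cd163, Adgre1 and Ptprc under 0.1 FPKM in every library. The higher sum at 10 months came from Csf1r, with means of 7.04, 12 and 11.3 FPKM. Between 2 and 10 months it was the 1 of the 3 tested macrophage markers that rose by limma, where 19.0% of all genes rose, and 0 fell. Csf1r also rose between 2 and 20 months on both scales, where 18.6% and after scaling 31.0% of all genes did. It was not called between 10 and 20 months (adjusted p = 0.353). Cd68 (4.32 and 4.23 FPKM) and Lyz2 (3.82 and 3.83 FPKM) were not called between 2 and 10 months, and Cd68 fell to 2.23 FPKM at 20 months (adjusted p = 0.00389 against 10 months). Skeletal muscle markers summed to 31.7 to 34.7 FPKM at 2 months and 22.1 to 23.9 FPKM at 10 months, with the 20-month values given above. By limma 0 of the 7 tested muscle markers were called in any comparison on either scale, where 29.7 to 68.2% of all tested genes were called. The spread in these fits includes 20-month replicate 3, with its sum of 264 FPKM. The part of these cells in the levels of Nfat5, Slc6a6 and Akr1b1 was not tested.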

How the data were processed

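RNA of rat nucleus pulposus was profiled in 9 input libraries, 3 per age, grouped by the age in the labels. Per the file headers, the deposited values are FPKM per gene in the gene table, and FPKM and the mean coverage per base for transcripts in the isoform table. The tools named in the submitters' processing notes, with no role stated, are edgeR, DESeq2, StringTie 1.3.4d, HISAT2 2.0.4 and cutadapt 1.9. The sources used here do not give the strandedness, so antisense partners cannot be told apart. The tables hold no counts. Gigabases and read equivalents were derived from coverage, length and the commonest read length, and they show counting error only roughly.

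The genes and lists were chosen with earlier results of these data known. limma 3.58.1 (R 4.3.3, mean-variance trend) was fitted on log2(FPKM + 1) over the 9 libraries, after a filter of FPKM 1 in 3 libraries, with Benjamini-Hochberg adjustment over 11708 genes and calls at 0.05. This scale understates the change of low genes. The test was checked on simulated data. Isoform use was the log2 ratio of a transcript to the gene's others, with 0.5 added to both. Named list genes were up to 3 called per direction and comparison by smallest adjusted p, and not all of them are printed, since some genes that the rule names are not reported here. Alternatives were pseudocounts of 0.1 and 5, other filters, 3 rescalings, array weights, pairs of ages fitted alone, a replicate block and leaving out each library.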

Additional observations from a re-analysis of the deposited data

How the results depend on the processing

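Between 2 and 10 months Slc6a6 and Nfat5 kept their calls in every setting run: 0.70 to 0.97 and 0.17 to 0.23 over 11 settings, and 0.88 to 0.95 and 0.19 to 0.23 when 1 library was left out. Akr1b1 turned to 0.012 with an equal sum without ribosomal protein and mitochondrial genes, and ranged from −0.052 to 0.015 with 1 library left out. All genes called numbered 3551, against 4807 with only these ages fitted, 5116 with array weights and 2504 to 4073 with 1 library left out. Between 2 and 20 months, median-of-ratios scaling gave 3630 rising and 3668 falling genes, 2 called members, 15 rising and 20 falling pathway genes, and differences of 0.15 for Nfat5, 0.12 for Slc6a6 and 0.24 for Akr1b1. Quantile normalization gave 3276 rising genes, 1 called member, 11 rising pathway genes, 0.12 for Nfat5 and 0.10 for Slc6a6. The equal sum gave 0.016 for Nfat5, and array weights −0.017 for Akr1b1. With 1 library left out, Slc6a6 ranged from −0.23 to 0.0072, Akr1b1 from −0.077 to 0.14 and the called members from 0 to 1. Between 10 and 20 months, median-of-ratios scaling gave 3125 rising and 3017 falling genes, 14 rising and 13 falling pathway genes, −0.025 for Nfat5 and 0.29 for Akr1b1. Quantile normalization gave 2654 and 3353 genes, 8 and 19 pathway genes, 1 called member and −0.058 for Nfat5. Akr1b1 was −0.0044 with array weights and ranged from −0.067 to 0.15 with 1 library left out, while Slc6a6 ranged from −1.14 to −0.90. Median-of-ratios scaling and quantile normalization set the typical gene equal by construction; the equal sum did not, with 2616 rising and 4966 falling genes between 2 and 20 months, and the cause of the other shifts was not tested. Of 895 values for the named pathway genes under alternatives, 858 kept their call and 37 lost it. These genes were picked because they were called in the main setting, and the settings share libraries. This share therefore does not measure how stable the lists are, whose counts moved as given above. Same-numbered libraries did not deviate together (correlations of −0.0400 to 0.0491), so the numbers were not taken as pairs; a replicate block called 3185, 7859 and 7467 genes against 3551, 7986 and 7576, changed no call of Nfat5, Slc6a6 or Akr1b1, and among the named pathway genes lost Sord between 2 and 10 months (adjusted p = 0.0546) and Lrrc8b between 2 and 20 months (0.0641). Depth limits Aqp1 and Aqp3, and with 3 libraries per age a missed threshold does not show that levels were equal.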
